A study of Sus scrofa with 6 samples.

Results

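The glycolytic enzymes that carry glucose 6-phosphate to pyruvate, and the lactate dehydrogenases that interconvert pyruvate and lactate, were followed step by step in a back muscle of the pig, longissimus dorsi (LDM), and in a loin muscle, psoas major (PMM). The members were GPI, PFKM, ALDOA, TPI1, PGK1, PGAM2, ENO3, PKM, LDHA and LDHB, 10 genes in all. They were listed by name, with earlier results of these data known. A probe was taken as a member when the array's gene name was the symbol, or when its description held the symbol in brackets or named a lactate dehydrogenase A or B chain. This found 9 of the 43603 probes and covered 6 of the 10 genes. The description of 1 further probe writes LDH-A, which the RefSeq table lists as another name of LDHA, and this probe was added, so that 10 probes of 7 genes were followed. No probe was matched to ALDOA, PGAM2 or PKM, and those steps were not analysed here.

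Total RNA of each muscle was labelled with Cy3 and hybridized to Agilent oligonucleotide arrays, giving 3 LDM arrays and 3 PMM arrays. The 3 pigs were unrelated female Landrace animals of 210 days, reared together on the same diet from day 28 and kept off feed for 24 h before slaughter, and the study sampled both muscles of each pig. All arrays thus share breed, sex, age and fasting, and the muscle is the only difference that the labels give. The labels describe extraction from adipose tissue although they name the samples as muscle. The muscle-defining genes CKM and ACTA1 were well above background on all 6 arrays, as were the adipocyte genes CFD and FABP4. On the normalized log2 scale given below, the mean signals of 5 muscle-defining genes ran from 9.89 for CKM to 3.27 for TTN. Those of 8 adipocyte genes ran from 7.28 for CFD to -3.55 for PLIN1. The share of fat in the samples was not tested. Between 58.5% and 72.4% of the 43803 spots on an array were well above background, none was saturated, and all 10 member probes were well above background on all 6 arrays.

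Glycolysis splits glucose into pyruvate in the cytosol and yields ATP without oxygen. In fast glycolytic fibres much of the pyruvate is reduced to lactate, which regenerates the NAD+ that the pathway needs, whereas slow oxidative fibres pass more pyruvate to mitochondria and also take up lactate as fuel. Lactate dehydrogenase is a tetramer of A and B subunits. The A subunit predominates in glycolytic muscle and the B subunit in heart and slow muscle. LDM is known as a mostly white, fast muscle and PMM as a redder one, and the comparison asked whether the genes of this pathway differed between them.

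Each probe of the array is a DNA strand of 60 bases, and the measured signal is how much labelled RNA bound to it. The following probes are shown because LDHB carried the difference described below and because GPI and TPI1 were the other members that differed in 1 direction in every pair of arrays. Sequences are given 5′ to 3′ as the array files list them, all in lower case since the whole strand takes part in binding.
LDHB, probe A_72_P321168: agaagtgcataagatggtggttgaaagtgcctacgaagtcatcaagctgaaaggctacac
LDHB, probe A_72_P095666: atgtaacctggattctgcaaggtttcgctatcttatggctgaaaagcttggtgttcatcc
GPI, probe A_72_P146806: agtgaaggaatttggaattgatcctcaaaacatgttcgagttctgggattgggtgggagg
TPI1, probe A_72_P303269: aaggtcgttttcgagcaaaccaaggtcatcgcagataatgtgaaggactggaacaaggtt
The pair of LDHB probes shown and A_72_P007566 are listed against the same transcript at positions 780, 582 and 1229, so they are 3 windows on 1 RNA and not 3 replicates. The RefSeq table held 2 pig genes named LDHB, and whether the probes also bind the RNA of the other was not tested. GPI had 1 probe, at position 790 of its transcript, and TPI1 had 2, at positions 468 and 747.

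Signals are given as normalized log2 signal, the log2 intensity minus the log2 of the 75th percentile of that array, in the order of replicates 1, 2 and 3. Differences are PMM minus LDM on this scale, with the standard error (SE) from limma over the 25835 probes tested. Unless a block is named, SE, intervals and limma's p come from a fit by muscle alone, which ignores pairing by replicate number. With the replicate number as a block the SE was 0.25 instead of 0.65 for GPI and 0.23 instead of 0.36 for LDHB. The median SE over all probes was 0.19 instead of 0.38. Signals of different probes depend on how well each probe binds and were not set against each other. For TPI1 and LDHB, which had more than 1 probe, the brightest over the 6 arrays stands for the gene. Genes of the pathway and marker lists were also read by their brightest tested probe. Some of those genes had further probes, which are not given here.

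None of the 7 genes measured passed the test. limma called 0 of 7 at an adjusted p of 0.05, where 0.031% of all probes tested were called. At an unadjusted p under 0.05 there was 1 gene, LDHB, where the share among all probes was 2.63%. LDHB was higher in PMM, and the other 6 genes had differences below 0. The share of all probes with a difference below 0 was 55.8%. Compared by replicate number, LDHB was higher in PMM in all 3 pairs, as were 16.3% of all probes, and GPI and TPI1 were lower in all 3, as were 19.3%. The median difference of the 7 genes was -0.33, against -0.041 over all probes tested. This median had no stable direction: it was -0.13, 0.18 and -0.66 for replicates 1, 2 and 3 (SD 0.43), 0.11 without LDM replicate 1 and 0.026 without both arrays of replicate 3. With the replicate number as a block, 17 probes (0.0658%) instead of 8 were called, and again none of the 7 genes. At an unadjusted p under 0.05 the block gave 2 of the 7, LDHB and GPI, where it gave 11.1% of all probes.

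**Figure D1:**
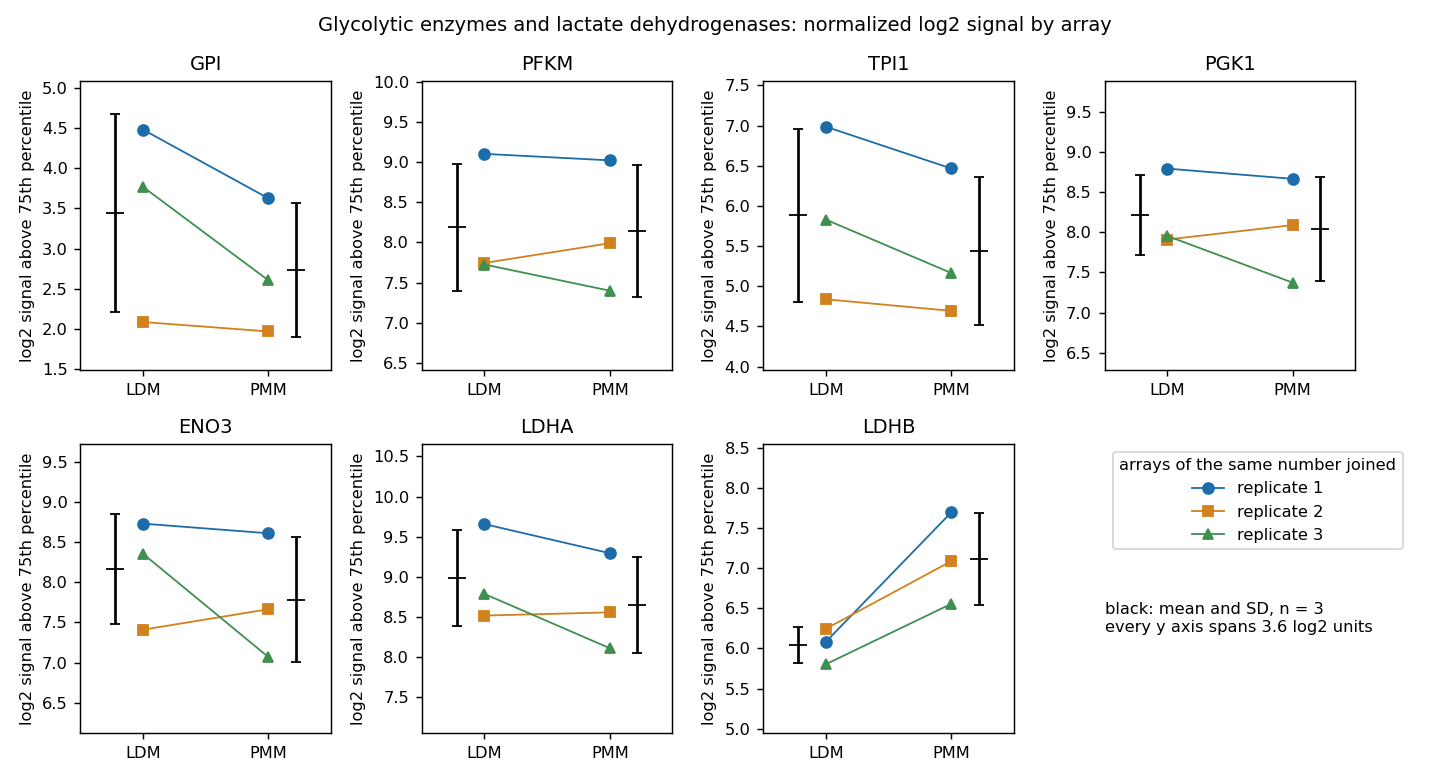
Normalized log2 signal (y axis) of the 7 measured genes in LDM and PMM (x axis), each by its brightest probe. Coloured points are single arrays with lines joining those of the same replicate number, and black marks are the mean and SD of 3 arrays. The muscles overlap in every panel except LDHB, where the PMM arrays (6.56 to 7.69) lie above the LDM arrays (5.80 to 6.25).

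The first member, GPI, isomerizes glucose 6-phosphate to fructose 6-phosphate. Its signals were 4.48, 2.09 and 3.77 in LDM and 3.63, 1.97 and 2.61 in PMM. PMM was lower in all 3 pairs of the same number, by 0.85, 0.12 and 1.16, but the muscles overlapped because the replicate 2 arrays were the lowest of each muscle. The difference was -0.71 (SE 0.65), from 3.45 ± 1.23 in LDM to 2.73 ± 0.84 in PMM (mean ± SD, n = 3), and was smaller than the spread within LDM. limma's adjusted p was 1.0, or 0.39 with the replicate block. GPI gave the largest difference of the 6 genes with values below 0, and 2.72% of all probes tested had a difference as low.

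PFKM is the muscle subunit of phosphofructokinase, which catalyses the committed and most regulated step. Its signals were 9.10, 7.75 and 7.73 in LDM and 9.02, 7.99 and 7.40 in PMM. Replicate 1 was the highest array of each muscle, and the pairs did not share a direction. The difference was -0.054 (SE 0.53), with a 95% interval from -1.26 to 1.15, or from -0.52 to 0.42 with the replicate block.

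TPI1 interconverts the triose phosphates that aldolase releases. By its brighter probe the signals were 6.99, 4.84 and 5.83 in LDM and 6.47, 4.69 and 5.16 in PMM. By the other probe, shown above, they were 6.74, 4.94 and 5.40 in LDM and 6.04, 4.78 and 4.37 in PMM. Both probes were lower in PMM in all 3 pairs, both overlapped between the muscles, and they followed each other over the 6 arrays (r = 0.93). The differences were -0.44 (SE 0.62) and -0.63 (SE 0.58), and with the replicate block limma's adjusted p was 0.47 and 0.39. Differences as low were found in 8.27% and 3.68% of all probes tested.

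PGK1 makes the first ATP of the pathway from 1,3-bisphosphoglycerate. Its signals were 8.79, 7.91 and 7.95 in LDM and 8.66, 8.09 and 7.37 in PMM. The arrays interleaved between the muscles, and the difference was -0.18 (SE 0.42).

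ENO3 is the muscle enolase, which forms phosphoenolpyruvate. Its signals were 8.73, 7.41 and 8.36 in LDM and 8.61, 7.67 and 7.07 in PMM. The lowest array was PMM replicate 3, and that pair differed by -1.29 while replicates 1 and 2 differed by -0.12 and 0.25. The difference of the means was -0.38 (SE 0.49), which rested on that pair: without replicate 3 in both muscles it was 0.067.

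LDHA encodes the A subunit of lactate dehydrogenase. Its signals were 9.66, 8.52 and 8.79 in LDM and 9.29, 8.56 and 8.11 in PMM, from intensities of 189100 to 547850 units. The muscles overlapped, and PMM was lower for replicates 1 and 3 and about level for replicate 2, which differed by 0.040. The difference was -0.33 (SE 0.43) with a 95% interval from -1.32 to 0.65, and it was 0.0019 without LDM replicate 1.

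LDHB encodes the B subunit and was the only measured member with a positive difference. By its brightest probe, the intensities were 46007, 66962 and 36771 units in LDM and 123190, 107868 and 64314 units in PMM. The normalized signals were 6.08, 6.25 and 5.80 in LDM and 7.69, 7.09 and 6.56 in PMM. All 3 PMM arrays lay above all 3 LDM arrays after normalization, which held for 3.11% of all probes tested. Before normalization PMM replicate 3 lay between the LDM arrays.

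The difference for LDHB was 1.07 (SE 0.36), or 2.10-fold higher in PMM with a 95% interval from 1.18- to 3.73-fold. It was 1.61, 0.84 and 0.75 for replicates 1, 2 and 3, so it was positive in 3 of 3 pairs. The arrays of replicates 2 and 3 lay on slides that held both muscles, so that 0.84 and 0.75 are also values within a slide. With the slide as a block the difference was 0.80, which is only the mean of 0.84 and 0.75, since replicate 1 then drops out. The difference of 1.07 exceeded the SD within LDM (0.22) and within PMM (0.57). limma's unadjusted p was 0.0178, and the adjusted p was 1.0 without the replicate block and 0.234 with it. An exact permutation test of the 6 arrays gave p = 0.1, the smallest that 3 against 3 arrays can give. Of all probes tested, 1.57% had a difference as high.

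The other LDHB probes, both shown above, gave the same picture. Probe A_72_P321168 had signals of 5.18, 5.31 and 4.64 in LDM and 6.97, 6.14 and 5.32 in PMM. Probe A_72_P095666 had signals of 3.88, 3.93 and 3.51 in LDM and 5.77, 4.83 and 4.18 in PMM. Neither overlapped between the muscles, although PMM replicate 3 exceeded LDM replicate 2 by only a small margin on the first. Their differences were 1.1 (SE 0.45) and 1.15 (SE 0.43), and the 3 probes correlated between 0.98 and 0.99 over the 6 arrays.

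**Figure D2:**
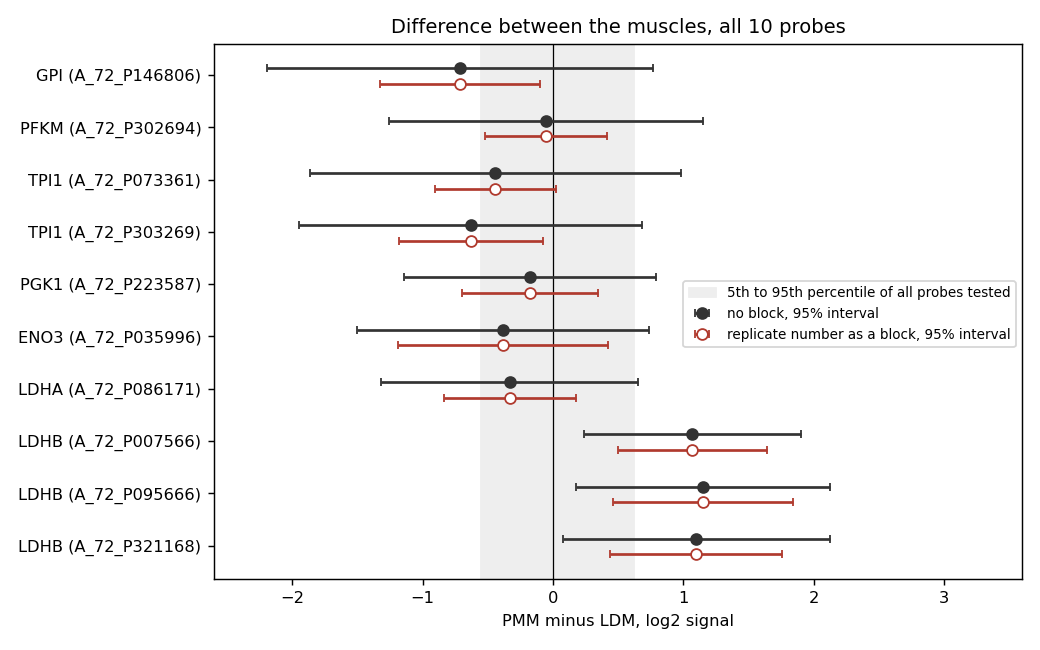
PMM minus LDM in log2 signal (x axis) for each of the 10 probes (y axis), with 95% intervals from limma without a block (black) and with the replicate number as a block (red, open). The grey band is the 5th to 95th percentile of all probes tested, -0.55 to 0.62. The 3 LDHB probes lie between 1.07 and 1.15 to the right of the band, and the other 7 probes lie between -0.71 and -0.054. Of these, GPI (-0.71) and TPI1 probe A_72_P303269 (-0.63) lie to the left of the band.

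The LDHA to LDHB ratio was taken within each array as the LDHA signal minus that of the brightest LDHB probe. A scaling factor common to an array cancels in it. Since the probes bind differently, the size of a ratio does not give the share of subunits, and only its change between arrays was read. In LDM the log2 ratio was 3.57, 2.27 and 2.98, which is 11.9, 4.83 and 7.91 on the linear scale. In PMM it was 1.60, 1.47 and 1.56, or 3.03, 2.77 and 2.94. All 3 PMM arrays lay below all 3 LDM arrays, and the PMM arrays lay closer together.

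The mean log2 ratio was 2.94 ± 0.65 in LDM and 1.54 ± 0.065 in PMM (SD, n = 3). The difference of -1.40 is a 2.64-fold lower ratio in PMM, and the pairs differed by -1.97, -0.80 and -1.43. The exact permutation p was 0.1, the smallest possible, and an exact sign-flip test of the 3 pairs gave 0.25, also the smallest possible, so this design could not reach 0.05 with either. With LDHB probe A_72_P095666 the difference was -1.48, and with A_72_P321168 it was -1.43. The difference of -1.40 is the sum of -0.33 for LDHA and the 1.07 of LDHB taken away.

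**Figure D3:**
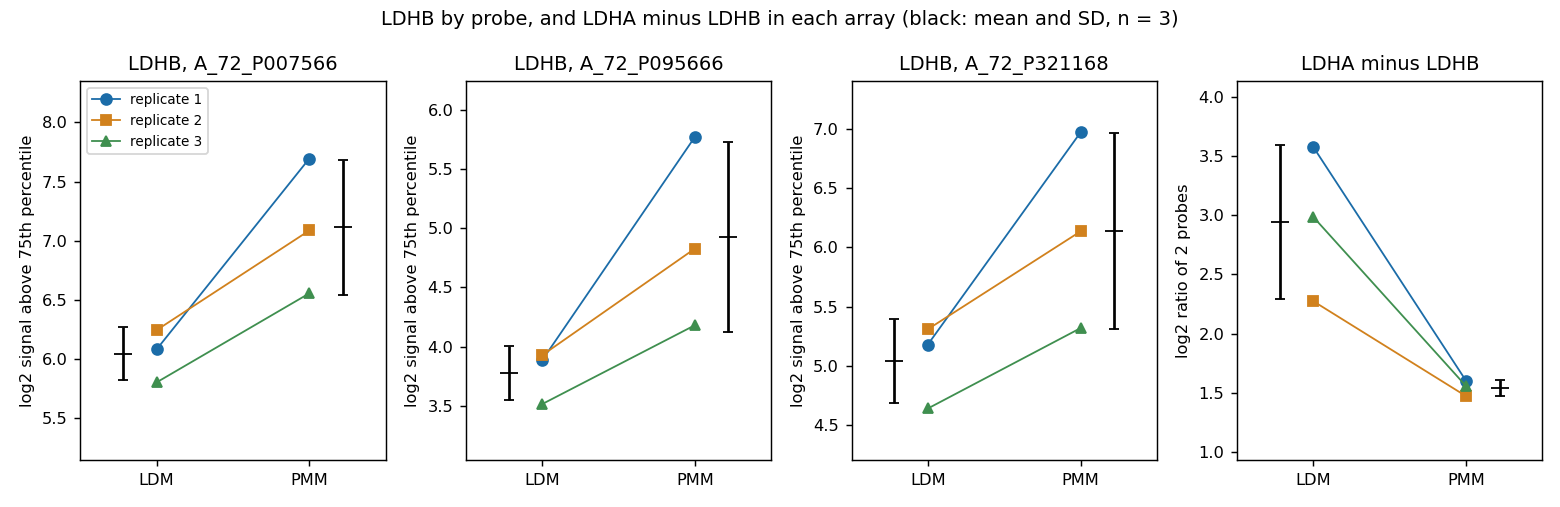
Normalized log2 signal of LDHB by each of its 3 probes, and the log2 ratio of LDHA to the brightest LDHB probe (y axes), in LDM and PMM (x axes), with arrays of the same replicate number joined and mean and SD in black (n = 3). LDHB is higher in PMM in every pair on every probe, and the ratio lies between 2.27 and 3.57 in LDM and between 1.47 and 1.60 in PMM.

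The 6 genes other than LDHB varied more between replicate numbers than between muscles. Averaged over both muscles, their range over the 3 numbers was 1.03 to 2.03, with a median of 1.32, against muscle differences of 0.054 to 0.71 in size. For LDHB the range was 0.71 and the muscle difference 1.07 by the brightest probe. By probe A_72_P095666 they were 0.98 and 1.15, and by A_72_P321168 the range equalled the difference to 2 decimals, at 1.1. Among the 25725 probes with a value on every array, the muscle difference exceeded this range in 9.04%. Replicate 1 gave the highest array of each muscle in all 6 genes, which was so for 29.2% of those probes, and not in LDHB, where LDM replicate 2 was the highest LDM array. Replicate number coincided with the day of scanning, so pig and scan day cannot be told apart here.

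The 6 genes also followed each other. Pearson's r over the 6 arrays ranged from 0.64 for GPI and PGK1 to 0.97 for PFKM and PGK1, with a median of 0.88 over 15 pairs. LDHB with these genes ranged from -0.24 for GPI to 0.36 for PFKM, with a median of 0.050. These values are descriptions over arrays that share scan day and scaling. The 3 other named genes most like LDHB among the 2672 compared were NDUFA4 (r = 0.99), a subunit associated with cytochrome c oxidase, ITGB6 (r = 0.99), an integrin chain, and PLA2G7 (r = 0.98), a lipoprotein-associated phospholipase. Those most like LDHA were OAT (r = 0.99), the ornithine aminotransferase, VLDLR (r = 0.99), a lipoprotein receptor, and PGM1 (r = 0.99), which links glycogen to glucose 6-phosphate. An r over 0.9 was reached by 73 genes for LDHB and 224 for LDHA.

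Genes around the pathway were read from lists of 59 genes, of which 20 were measured and 0 passed limma's test with or without the replicate block. Without the block, 2 of the 20 (MDH1 and PC) had an unadjusted p under 0.05, as had 2.63% of all probes. For the alternative isoforms of the member steps and for GAPDH, 0 of 15 genes were tested: PGK2 and LDHC, the testis forms, were not well above background, and no probe was matched to the rest. For glucose phosphorylation and uptake, 5 of 8 genes were measured, and no probe was matched to SLC2A4, the insulin-responsive transporter of muscle. HK1, the main hexokinase of most tissues, differed by 0.0034 (SE 0.45), HK2 by 0.11 (SE 0.69), and the glucose transporters SLC2A3 and SLC2A1 by 0.12 (SE 0.37) and 0.015 (SE 0.41). Among the regulators, PFKFB1 and PFKFB4, which set the level of the activator fructose 2,6-bisphosphate, differed by -0.075 and -0.15, FBP1, which runs the phosphofructokinase step backwards, by -0.27, and HIF1A, the hypoxia factor, by 0.056. All of these differences, hexokinases and transporters included, were smaller than their SE in the fit without a block. The intervals of that fit were wide, from -1.47 to 1.68 for HK2 and from -1.02 to 1.03 for HK1. FBP1 was lower in PMM in all 3 pairs, as were 19.3% of all probes, and limma's unadjusted p with the replicate block was 0.17. Mean signals were low for HK2 (-2.47), SLC2A3 (-2.74), SLC2A1 (-3.25) and PFKFB4 (-2.32), although each was well above background on all 6 arrays.

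Genes that take pyruvate or NADH into mitochondria had mostly positive differences. Of the 6 genes of pyruvate and lactate fate, 4 were higher in PMM in every pair and 2 lower, against the 16.3% and 19.3% given above for all probes. MPC2, of the mitochondrial pyruvate carrier, differed by 0.58 (SE 0.33), and the pyruvate dehydrogenase components DLD and DLAT by 0.52 (SE 0.53) and 0.41 (SE 0.45). PDK3, a kinase that inactivates pyruvate dehydrogenase, differed by -0.56 (SE 0.36). With the replicate block limma's unadjusted p was 0.019 for MPC2, 0.023 for DLD, 0.089 for DLAT and 0.026 for PDK3. Their adjusted p with the block ran from 0.35 to 0.53, and 11.1% of all probes had an unadjusted p under 0.05 with it. SLC16A1 and PC fell outside the rule for naming genes and were singled out after their values were seen. SLC16A1, a lactate and pyruvate transporter, differed by 0.98 (SE 0.51) by the brightest of its 3 tested probes, with limma's adjusted p of 0.196 under the replicate block. PC, which carboxylates pyruvate to oxaloacetate, had signals of 1.63, 1.50 and 1.91 in LDM and 1.05, 0.65 and 0.72 in PMM, all 3 PMM arrays being below all 3 LDM arrays, as in 2.89% of all probes, and a difference of -0.87 (SE 0.30).

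The shuttles that move cytosolic NADH into mitochondria compete with lactate dehydrogenase for it. In the malate-aspartate shuttle, GOT1 differed by 1.21 (SE 0.53), GOT2 by 0.39 (SE 0.46) and MDH2 by 0.58 (SE 0.53), and MDH1, also named after its values were seen, by 1.08 (SE 0.45). All of these were higher in PMM in 3 of 3 pairs, as were 16.3% of all probes. MDH1 was the only gene of the list without overlap, with 5.04, 4.79 and 4.19 in LDM and 6.61, 5.56 and 5.09 in PMM. All PMM arrays lay above all LDM arrays in 3.11% of all probes. GPD1, of the glycerol phosphate shuttle, differed by -0.068 (SE 0.45). limma's adjusted p was 1.0 for each, and the lowest in this list with the replicate block was 0.188, for GOT1. Unadjusted, limma's p with that block was 0.0012 for GOT1, 0.0033 for MDH1, 0.026 for MDH2, 0.064 for GOT2 and 0.73 for GPD1.

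**Figure D4:**
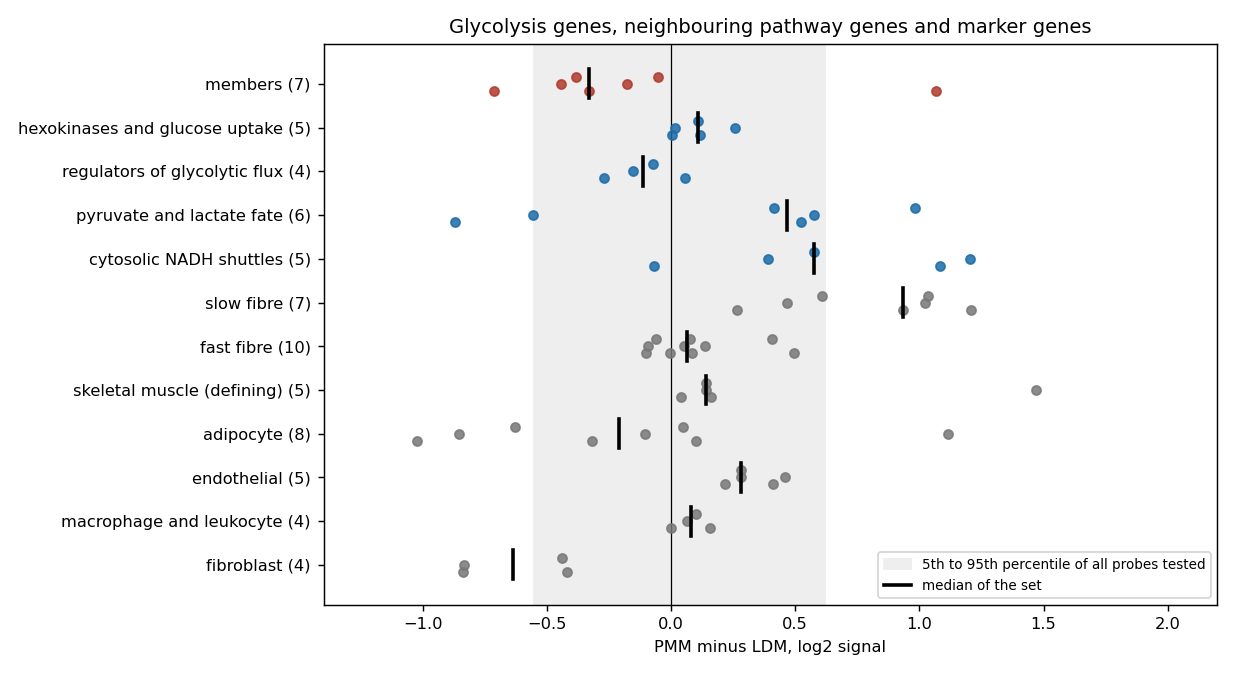
PMM minus LDM in log2 signal (x axis) for each measured gene of the glycolysis set (red), of the pathway lists (blue) and of the marker lists (grey), with the number of genes in brackets, the median of each set as a black bar and the 5th to 95th percentile of all probes tested as a grey band. The slow fibre genes have a median of 0.93 and the fast fibre genes one of 0.064, and LDHB is the red point at 1.07.

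Of the marker lists for fibre and cell types, the slow fibre and fibroblast genes each differed in 1 direction in every pair, and limma called no gene of any list with or without the replicate block. In bulk RNA, fewer cells of a type and less RNA per cell cannot be told apart. The 7 slow fibre genes measured were all higher in PMM in every pair, as were 16.3% of all probes. Of the 7, 5 did not overlap, where 3.11% of all probes were so. Their mean log2 signal ranged from 7.67 to 7.99 in LDM and from 8.29 to 9.08 in PMM. The brightest of them, the troponin TNNT1 and the myosin light chain MYL2, differed by 0.26 (SE 0.31) and 0.61 (SE 0.30). limma called none of the 7, and 4 had an unadjusted p under 0.05, as had 2.63% of all probes. The 10 fast fibre genes had mean signals of 8.26 to 9.16 in LDM and 8.54 to 9.25 in PMM, and the brightest, TNNC2 and MYH1, differed by -0.0057 (SE 0.32) and 0.084 (SE 0.36). Of the 5 muscle-defining genes, CKM and ACTA1 differed by 0.14 and 0.041. Only MB, the oxygen store, did not overlap, at 1.47 (SE 0.41), against the same 3.11% of all probes. MB was named after its value was seen.

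The 4 fibroblast genes were lower in PMM in every pair, as were 19.3% of all probes, and each overlapped between the muscles. Their mean signals were 1.02 to 2.03 in LDM and 0.44 to 1.18 in PMM, and DCN and COL3A1 differed by -0.44 (SE 0.44) and -0.42 (SE 0.37). The 8 adipocyte genes overlapped at 2.30 to 3.36 in LDM and 2.05 to 3.17 in PMM, with CFD and FABP4 at 0.049 and 0.099. Their median was -0.21, with 5 of 8 genes below 0. Singled out after their values were seen, PLIN1 (-1.03), CIDEC (-0.86) and ADIPOQ (-0.63) were lower in PMM in every pair, as were 19.3% of all probes. PLIN1 had a low mean signal (-3.55) and entered the test through LDM, since only 2 of its PMM arrays were well above background. LPL, also singled out, was higher at 1.12 without overlap, as were 3.11% of all probes. The 5 endothelial genes spanned 1.50 to 2.94 in LDM and 2.16 to 2.97 in PMM, with PECAM1 and VWF at 0.28 and 0.22. The 4 macrophage and leukocyte genes spanned 0.15 to 2.15 and 0.52 to 1.98, with AIF1 and CD163 at 0.0010 and 0.10. Every one of these 4 lists was lowest on the replicate 1 array of each muscle, where the 6 glycolytic genes other than LDHB were highest. No probe was matched to any of the 6 erythrocyte genes. The part of these cell types in the differences of the members was not tested.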

How the data were processed

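The authors deposited linear spot intensities of the Cy3 channel from Agilent Feature Extraction 10.5.1.1, which subtracts local background and corrects trends within each array and leaves arrays unscaled. The series' value table repeated these intensities to within 0.005 units. The arrays' workflow is credited in the study to an earlier report, and no normalization is given in the sources used here.

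Control spots and outlier spots (6 to 161 per array) were left out and spots of a probe averaged. Each intensity was divided by its array's 75th percentile (595 to 883 units) and put on the log2 scale. A probe was tested when well above background on all 3 arrays of either muscle, with at least 2 values per muscle. limma 3.58.1 in R 4.3.3 (lmFit, eBayes, two-sided, Benjamini-Hochberg over all 25835 probes, threshold 0.05) compared PMM with LDM, after a check on simulated data. Probes were named by the array files and the RefSeq table of Sscrofa11.1, which named 3380 genes. The number of arrays limits the precision, and the 3 arrays of a muscle were taken as 3 pigs.

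The members, lists and tests were chosen with earlier results of these data known. Named beside the members were up to 4 genes of each pathway list and up to 2 of each marker list with the highest mean signal, and the 3 genes most correlated with LDHA and with LDHB. Genes outside this rule are marked as such where they are named.

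Each of 3 pigs gave both muscles, and the sources used here do not state that a replicate number is a pig. Deviations of arrays with the same number from their muscle's mean correlated at 0.62, 0.70 and 0.56, all above the 0.1 set as the limit. Arrays of the same number were therefore compared as pairs and given a block in an alternative fit, while limma's main fit had no block. Arrays of a number were scanned on the same day. Replicates 2 and 3 each had both muscles on 1 slide, and replicate 1 on different slides. Alternatives were other normalizations, background correction, detection filters, replicate and slide blocks, the mean over a gene's probes, and leaving out arrays.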

Additional observations from a re-analysis of the deposited data

How the results depend on the processing

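The count of called member genes stayed at 0 in all 24 alternatives. LDHB stayed higher in PMM in all 24 (0.78 to 1.35, adjusted p 0.107 to 1.0), GPI lower in all 24 (-1.39 to -0.19), and the log2 ratio of LDHA to LDHB lower in all 21 (-1.74 to -1.09). Not all of these could move a difference. The replicate block and the detection filters leave it unchanged by design, and the slide block gives the same value as leaving out replicate 1. Scaling by 1 factor per array cancels in the ratio, which stayed at -1.40 under the array median and the percentile over detected probes. Genes other than LDHB and GPI kept their sign except when arrays were left out. With single arrays left out the differences ranged from -0.50 to 0.40 for PFKM, -0.97 to 0.11 for TPI1, -0.49 to 0.16 for PGK1, -0.80 to -0.028 for ENO3 and -0.65 to 0.0019 for LDHA, and the median of the members from -0.65 to 0.11. Without LDM replicate 1 the signs of PFKM (0.40), TPI1 (0.11), PGK1 (0.11), LDHA (0.0019) and the median (0.11) turned. PFKM was 0.020 without PMM replicate 2, and PFKM was 0.32 and PGK1 0.16 without PMM replicate 3. Without both arrays of replicate 3, an alternative chosen after seeing the data, PFKM was 0.083, PGK1 0.026, ENO3 0.067 and the median of the members 0.026, with or without the replicate block.

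Over all probes, 8 were called. The replicate block gave 17, the slide block 529 and normexp background correction 1. The slide block compares the muscles within replicates 2 and 3 only. The count was 0 with the percentile over detected probes, with outlier spots kept, with no detection filter, with detection on all arrays, and with the replicate block after quantile normalization. Leaving out single arrays gave 0 to 1, and leaving out both arrays of a number 0. With the replicate block it was 802 without replicate 1, 1 without replicate 2 and 0 without replicate 3. The replicate block changed no member's call. The causes were not tested. Scaling by the array median moved the median of all probes from -0.041 to -0.10 and normexp moved it to 0.10, and no member changed sign under either. With 3 arrays a muscle, the 95% intervals of the 10 member probes span 1.66 to 2.96 log2 units in the fit without a block. With the replicate block they were narrower, as from 0.50 to 1.64 for the brightest LDHB probe.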
